A study of Mus musculus with 12 samples.

Results

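The comparison set the transcripts of mouse dorsal root ganglia at ZT8 and ZT14 against those at ZT20 and ZT2, across all expressed genes. Dorsal root ganglia hold the cell bodies of the sensory neurons that serve the body, wrapped by satellite glia, and Schwann cells that surround the nerve fibres. ZT is zeitgeber time, the hour counted from lights on, so the contrast puts the times on either side of ZT11 against those on either side of ZT23. All 12 libraries of the series took part, 6 on each side and 3 at each of the 4 times, and each time was weighted equally. Every mouse was a male of the C57BL/6J strain aged 6 to 12 weeks, with lumbar ganglia from L1 to L6 taken whole. No genotype or treatment other than the hour differed between the groups in the labels, and the sample titles call every library naive. Whether the libraries came from separate animals is not stated in the labels, and p-values reflect only how far these libraries spread, which may be technical. Library numbers ran in blocks by time (6 to 8 at ZT8, 11 to 13 at ZT14, 16 to 18 at ZT20 and 3 to 5 at ZT2), so a batch and a single time cannot be told apart. The mean library number was 9.5 for ZT8 and ZT14 and 10.5 for ZT20 and ZT2, which would balance only a steady drift over the numbers. A batch that follows the blocks cannot be told apart from the contrast of the sides either. Per the title of the series, the study concerns clock genes of nociceptors, the neurons that respond to painful stimuli.

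The molecular clock of mammalian cells is a loop of transcription and repression. ARNTL, also called BMAL1, pairs with CLOCK or NPAS2 and switches on genes that hold an E-box, among them the Per and Cry genes, whose products then repress that pair. A second loop runs through NR1D1 and NR1D2, the REV-ERB proteins, which repress Arntl at ROR elements, and a set of output factors (DBP, TEF and HLF) acts at D-boxes. In many mouse tissues Arntl transcripts are known to be low when those of the REV-ERB and output genes are high.

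Estimated counts summed to between 89.8 and 125.0 per library in units of 1000000, on a coverage scale that corresponds to an approximate 47.9 to 67.1 of the same units in reads. After a filter on low values 25809 genes were tested and 12785 were not. Mitochondrial transcripts took 10.3% to 11.6% of a library. Markers of satellite glia and of myelinating Schwann cells were present in every library, with sums of at least 5560.1 and 6292 CPM. Levels are CPM, estimated counts on that coverage scale, scaled to 1000000 of the normalised library size. They are compared between libraries and not between genes. In bulk tissue, fewer cells of a type and less RNA per cell cannot be told apart. The genes were tested with edgeR's quasi-likelihood test, and an adjusted p under 0.05 by the Benjamini-Hochberg method was the threshold.

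Of the 25809 genes, 13 passed the threshold, which is 0.0504% of those tested. The level at ZT8 and ZT14 was higher than at ZT20 and ZT2 for 9 of them (0.0349%) and lower for 4 (0.0155%). Of those that rose, 7 belong to the repressor and output arm of the clock (Nr1d1, Nr1d2, Per2, Per3, Ciart, Dbp and Tef), and the other two are Slco1a4 and Fmo2, a transporter and an oxidising enzyme. Arntl, Fabp7, Sat1 and Spg21 fell. At an unadjusted p under 0.05 there were 1286 genes (4.98%), 609 of them higher and 677 lower. DESeq2 called 81 genes (0.314%) and limma-trend 14 (0.0542%). The 6 libraries of one side did not overlap the 6 of the other for 61 genes (0.236%), among them 10 of the 13 called.

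**Figure D1:**
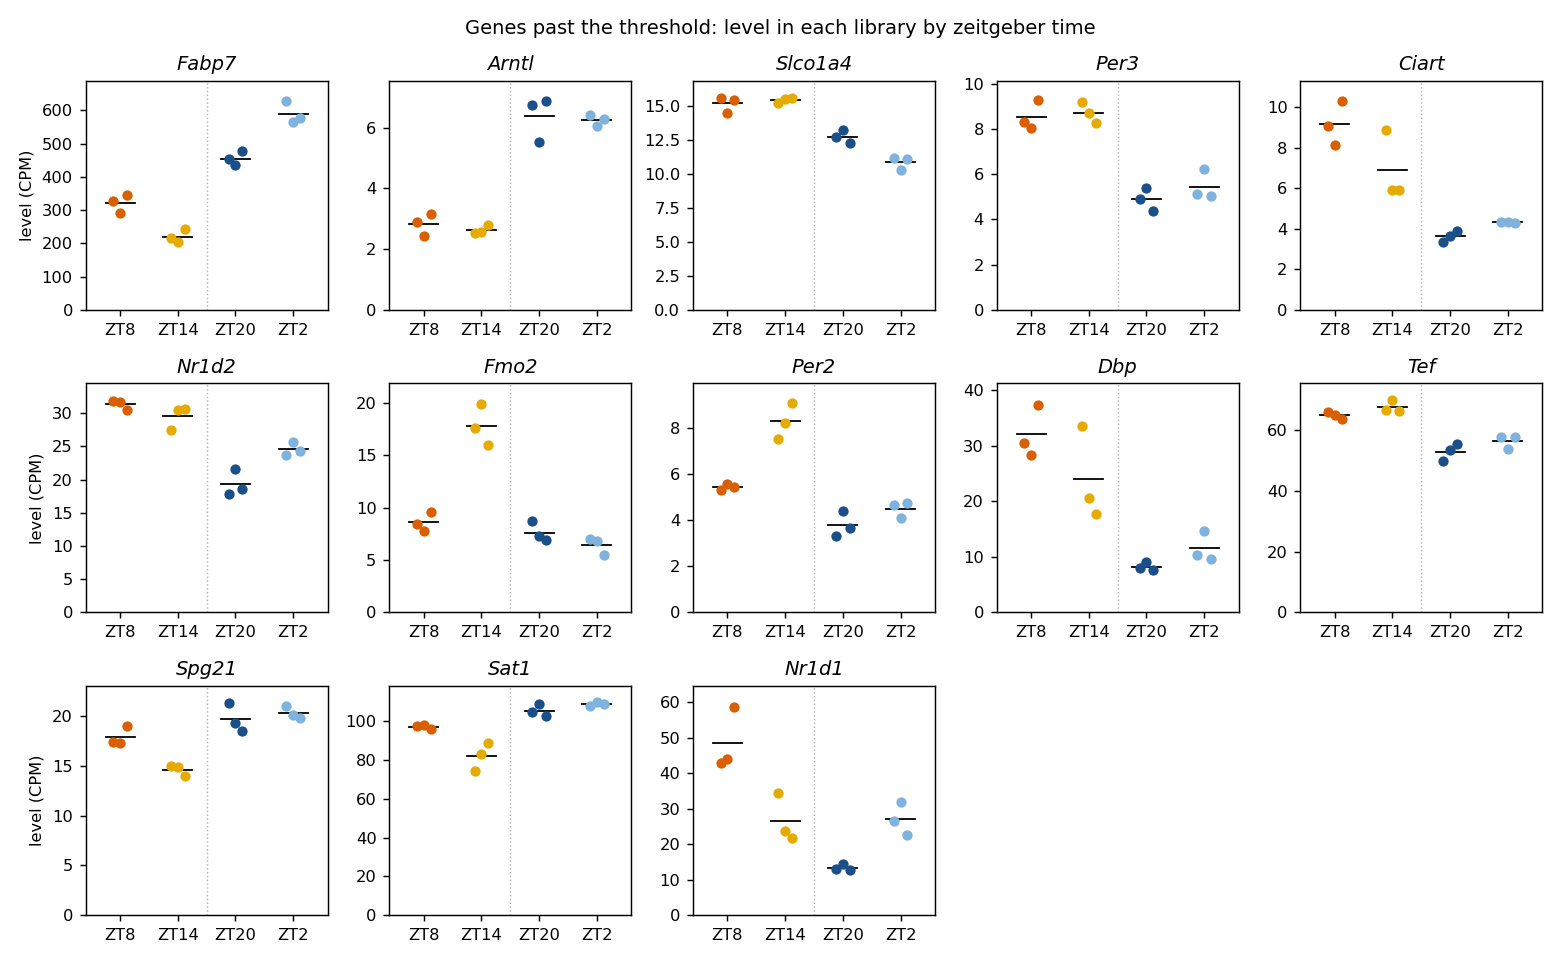
Level in CPM of the 13 genes past the threshold in each of the 12 libraries. Each point is 1 library, the bar is the mean of the 3 libraries of a time, the dotted line parts ZT8 and ZT14 from ZT20 and ZT2, and each axis starts at 0. The points of Arntl at ZT8 and ZT14 lie between 2.43 and 3.14 CPM, against 5.54 to 6.88 CPM at ZT20 and ZT2.

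Arntl, the activator of the loop, was the clock gene with the smallest p. Its level was 2.90, 2.43 and 3.14 CPM at ZT8 and 2.52, 2.58 and 2.80 CPM at ZT14, against 6.75, 5.54 and 6.88 CPM at ZT20 and 6.40, 6.05 and 6.27 CPM at ZT2. All 6 libraries of ZT8 and ZT14 were low and all 6 of ZT20 and ZT2 were high, with a gap between them. The log2 difference was -1.21 ± 0.08 (SE; 95% interval -1.38 to -1.04), a level 0.432 times that of ZT20 and ZT2, with an adjusted p of 9.53e-05 in edgeR. ZT8 minus ZT20 was -1.18 ± 0.11 and ZT14 minus ZT2 was -1.24 ± 0.11, both on the log2 scale.

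The REV-ERB genes encode nuclear receptors that repress transcription of Arntl. Nr1d2 stood at 31.8, 31.6 and 30.5 CPM at ZT8 and 27.4, 30.5 and 30.6 CPM at ZT14, against 17.8, 21.6 and 18.5 CPM at ZT20 and 23.7, 25.6 and 24.3 CPM at ZT2. Every ZT8 and ZT14 library was above every ZT20 and ZT2 library, and ZT20 was the lowest time. Nr1d2 rose 1.40-fold (log2 difference 0.48 ± 0.05, adjusted p = 0.00445 in edgeR). Its partner Nr1d1 was at 42.8, 44.0 and 58.7 CPM at ZT8 and 34.5, 23.6 and 21.8 CPM at ZT14, against 12.9, 14.4 and 12.8 CPM at ZT20 and 26.6, 31.8 and 22.5 CPM at ZT2. Here the sides overlapped, because the ZT14 and ZT2 libraries covered overlapping ranges while ZT8 was high and ZT20 low. The average over the side was still 1.89-fold higher (log2 difference 0.92 ± 0.13), and the adjusted p of 0.0461 was among those nearest the threshold. Leaving out 1 library ended the call of Nr1d1 in 9 of 12 fits, with adjusted p up to 0.201, and the call held only without ZT14 replicate 1, ZT14 replicate 3 or ZT2 replicate 2. On GRCm38, Nr1d1 (chromosome 11, 98767932 to 98775333, minus strand) shares 263 exon bases with Thra on the opposite strand, a gene with a mean level of 276.34 CPM and a log2 difference of -0.07 ± 0.06. No source used here gives the strand of the reads, so reads from the shared stretch cannot be told apart.

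The period genes encode proteins that gather in the repressor complex and shut off the activators. Per3 had 8.30, 8.04 and 9.30 CPM at ZT8 and 9.19, 8.70 and 8.27 CPM at ZT14, against 4.89, 5.41 and 4.38 CPM at ZT20 and 5.11, 6.24 and 5.02 CPM at ZT2. ZT8 and ZT14 were both high and the sides did not overlap. Per3 rose 1.67-fold (log2 difference 0.74 ± 0.07, adjusted p = 0.00445 in edgeR). Per2 had 5.34, 5.59 and 5.47 CPM at ZT8 and 7.56, 8.25 and 9.10 CPM at ZT14, against 3.33, 4.39 and 3.68 CPM at ZT20 and 4.66, 4.09 and 4.74 CPM at ZT2. ZT14 was the highest time, and the lowest ZT8 library still lay above the highest ZT2 library. Per2 rose 1.63-fold (log2 difference 0.70 ± 0.08, adjusted p = 0.00494). Per1, the member of the family that also responds to acute stimuli and to glucocorticoids, had a log2 difference of 0.51 ± 0.12 and did not pass the threshold (adjusted p = 0.534). Its libraries ran from 19.0 to 25.2 CPM at ZT8 and ZT14 and from 10.2 to 17.7 CPM at ZT20 and ZT2, without overlap.

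Ciart, also called CHRONO, encodes a repressor that binds the activator pair. It was at 9.08, 8.14 and 10.3 CPM at ZT8 and 8.86, 5.92 and 5.90 CPM at ZT14, against 3.36, 3.63 and 3.90 CPM at ZT20 and 4.32, 4.35 and 4.27 CPM at ZT2. The sides did not overlap, and ZT14 replicate 1 stood above the other ZT14 libraries. Ciart rose 2.01-fold (log2 difference 1.01 ± 0.11, adjusted p = 0.00445 in edgeR).

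Of the 3 output factors of the D-box family, Dbp and Tef rose. Dbp, the member with the widest difference, was at 30.5, 28.4 and 37.4 CPM at ZT8 and 33.6, 20.6 and 17.7 CPM at ZT14, against 8.04, 9.16 and 7.57 CPM at ZT20 and 10.4, 14.7 and 9.57 CPM at ZT2. The sides did not overlap, and ZT14 replicate 1 was again the highest library of its time. Dbp rose 2.84-fold (log2 difference 1.50 ± 0.17, 95% interval 1.13 to 1.87, adjusted p = 0.00795 in edgeR); without ZT20 replicate 1 its adjusted p was 0.0691. Dbp (chromosome 7, 45705088 to 45710203, plus strand) shares 539 exon bases with Sphk2 on the opposite strand, a gene with a mean level of 45.44 CPM and a log2 difference of 0.03 ± 0.04, so reads of the shared stretch cannot be told apart. Tef was at 66.0, 65.0 and 63.6 CPM at ZT8 and 66.5, 70.0 and 66.3 CPM at ZT14, against 49.8, 53.5 and 55.3 CPM at ZT20 and 57.7, 53.6 and 57.8 CPM at ZT2. The gap between the sides was narrow beside the level, and Tef rose 1.21-fold (log2 difference 0.28 ± 0.03, adjusted p = 0.0111). That call was lost when ZT14 replicate 2 or 3, ZT20 replicate 2, or ZT2 replicate 1 or 2 was left out (adjusted p up to 0.0861). Hlf, the remaining member, ran from 4.36 to 6.09 CPM at ZT8 and ZT14 and from 3.65 to 4.10 CPM at ZT20 and ZT2, with a log2 difference of 0.46 ± 0.08 and an adjusted p of 0.128.

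Of the 12 genes listed for the repressor and output arm, all 12 had a log2 difference above 0, 7 rose, and 8 showed no overlap between sides, against 28 of 25809 genes (0.108%) that were higher without overlap. Their median log2 difference was 0.49, against 0.00 over all genes tested, of which 50.5% lay above 0, and the list ran from 0.09 to 1.50. The members that did not pass were Per1, Hlf, Bhlhe40, Bhlhe41 and Cry2. Bhlhe40, a basic helix-loop-helix repressor of E-box genes, had a log2 difference of 0.29 ± 0.05 and an adjusted p of 0.0823. For its relative Bhlhe41 the difference was 0.13 ± 0.06, and for Cry2, a cryptochrome repressor, it was 0.09 ± 0.04.

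The activator arm holds Arntl, its partners and genes that peak near it in other tissues. Of its 9 listed genes 8 were tested, Rorb being under the filter, and only Arntl passed. The median log2 difference was -0.03. Nfil3, a repressor at D-boxes, had a difference of -0.20 ± 0.05 with an unadjusted p of 0.00228, and Npas2, the stand-in for CLOCK, had -0.21 ± 0.06 with an unadjusted p of 0.00839; neither passed after adjustment. Clock was at -0.03 ± 0.07 (95% interval -0.18 to 0.12), Arntl2 at -0.03 ± 0.07 and Rora at 0.06 ± 0.07. Cry1, a repressor known for a late phase in other mouse tissues, had a difference of 0.03 ± 0.04 as an average of ZT8 minus ZT20 at -0.20 ± 0.06 and ZT14 minus ZT2 at 0.26 ± 0.06. Its ZT14 libraries were at 13.1, 12.2 and 12.5 CPM and its ZT8 libraries averaged 10.1 ± 0.107 CPM (SD, n = 3), so that the 2 times of one side lay apart.

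**Figure D2:**
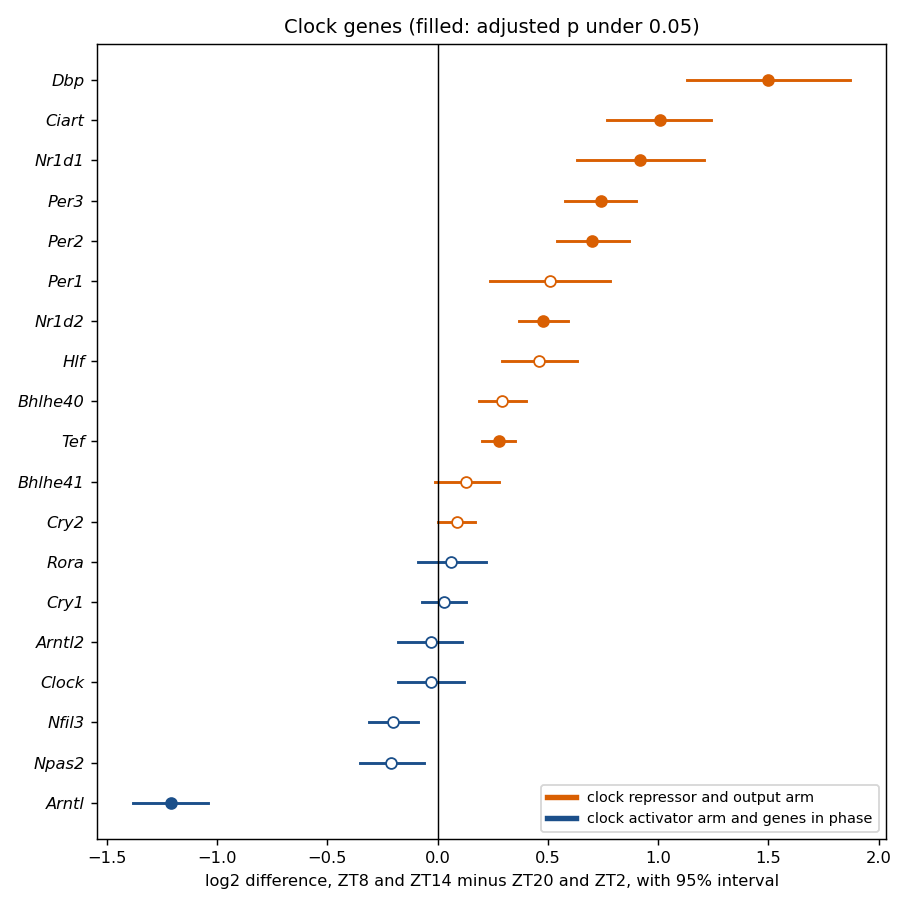
Log2 difference between ZT8 and ZT14 and ZT20 and ZT2 for 19 of the 20 tested genes of the clock lists, with 95% intervals. Filled points passed the threshold: Dbp lies farthest to the right at 1.50 and Arntl farthest to the left at -1.21.

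Promoter windows of clock genes that rose and of Arntl and Fabp7, which fell, are shown for the letters they hold; all windows of called genes were read for the elements named above. Each window runs from 250 bases before to 50 bases after a RefSeq start on GRCm38.p6. Capitals mark, on either strand, the E-box CACGTG, the E'-box CACGTT, the D-boxes TTATGTAA and TTACGTAA and the ROR element cores TAGGTCA and TGGGTCA. No stretch was matched by more than one motif. Windows are printed 5′ to 3′ on the strand of the gene, and the window of Ciart (chr3:95882179-95882478, minus strand) comes first.
Ciart: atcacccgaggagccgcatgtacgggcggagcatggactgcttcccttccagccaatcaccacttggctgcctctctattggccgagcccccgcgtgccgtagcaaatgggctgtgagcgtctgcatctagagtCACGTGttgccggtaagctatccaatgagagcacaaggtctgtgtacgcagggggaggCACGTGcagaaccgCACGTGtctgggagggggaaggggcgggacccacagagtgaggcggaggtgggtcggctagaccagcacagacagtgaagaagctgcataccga
Per3, chr4:151044616-151044915, minus strand: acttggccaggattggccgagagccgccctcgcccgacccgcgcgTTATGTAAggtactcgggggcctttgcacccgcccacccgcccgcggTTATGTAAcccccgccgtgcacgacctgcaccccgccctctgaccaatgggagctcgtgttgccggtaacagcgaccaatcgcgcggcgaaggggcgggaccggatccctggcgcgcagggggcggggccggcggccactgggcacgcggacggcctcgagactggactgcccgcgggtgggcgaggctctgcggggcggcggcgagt
Nr1d1, chr11:98775328-98775627, minus strand: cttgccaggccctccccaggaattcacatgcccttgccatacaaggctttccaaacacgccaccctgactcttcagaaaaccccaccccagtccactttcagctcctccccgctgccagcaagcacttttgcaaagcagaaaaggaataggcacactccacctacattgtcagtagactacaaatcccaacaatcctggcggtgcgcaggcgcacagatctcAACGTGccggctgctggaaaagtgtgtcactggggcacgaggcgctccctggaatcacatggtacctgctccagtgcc
Tef, chr15:81802423-81802722, plus strand: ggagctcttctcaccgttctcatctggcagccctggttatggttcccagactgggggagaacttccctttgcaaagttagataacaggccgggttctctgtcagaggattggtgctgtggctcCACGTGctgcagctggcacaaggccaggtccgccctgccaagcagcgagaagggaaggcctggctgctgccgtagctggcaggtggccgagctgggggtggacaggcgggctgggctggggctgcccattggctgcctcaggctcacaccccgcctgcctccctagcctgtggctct
Arntl, chr7:113207261-113207560, plus strand: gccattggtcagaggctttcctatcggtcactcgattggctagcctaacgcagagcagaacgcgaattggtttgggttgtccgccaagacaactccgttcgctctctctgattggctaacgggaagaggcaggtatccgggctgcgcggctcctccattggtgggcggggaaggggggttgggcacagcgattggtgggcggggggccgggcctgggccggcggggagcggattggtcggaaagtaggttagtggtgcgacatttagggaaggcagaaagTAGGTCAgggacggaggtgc
Fabp7, chr10:57784673-57784972, plus strand: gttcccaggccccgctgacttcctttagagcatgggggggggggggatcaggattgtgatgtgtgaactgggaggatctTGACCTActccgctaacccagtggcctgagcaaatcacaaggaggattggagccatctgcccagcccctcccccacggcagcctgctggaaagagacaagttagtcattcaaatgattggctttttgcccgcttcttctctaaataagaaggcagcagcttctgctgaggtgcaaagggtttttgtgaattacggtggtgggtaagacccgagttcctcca

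The window of Ciart held 3 E-boxes, at 116, 58 and 44 bases before the start. That of Per3 held 2 D-boxes, at 205 and 158 bases before it, and that of Nr1d1 held an E'-box 28 bases before it. An E-box stood in the Tef window 127 bases before the start, and the second of the windows of Arntl held a ROR element core 31 bases after the start. The other window of Tef (chr15:81811164-81811463) held an E-box 138 bases before its start. Of the 8 called clock genes 7 had a window, Per2 being the exception, and 2 of them held an E-box, 1 an E'-box, 1 a D-box and 1 a ROR core. Of the 5 called genes outside the clock lists, Fabp7, which fell, had a ROR element core 171 bases before the start, and Fmo2, which rose, had an E'-box 23 bases before the start of one of its windows. The windows of Slco1a4, Sat1 and Spg21 held none. Nfil3, which was not called, had a ROR core 12 bases before the start. Among all 32817 windows of the RefSeq table, 7.15% held an E-box, 4.69% an E'-box, 1.05% a D-box and 6.46% a ROR core. The windows of Dbp and Nr1d2 held none of these letters, which says nothing about elements elsewhere in those genes. A match is a description of the letters in the window and not of binding.

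Outside the clock lists, Fabp7 had the smallest p of all genes. It encodes the brain lipid-binding protein, a fatty acid carrier of glia that marks satellite glia in this tissue. Its level was 328, 291 and 347 CPM at ZT8 and 217, 203 and 242 CPM at ZT14, against 453, 436 and 477 CPM at ZT20 and 628, 566 and 577 CPM at ZT2. ZT14 was the lowest time and ZT2 the highest, and the sides did not overlap. Fabp7 fell to 0.514 times its level at ZT20 and ZT2 (log2 difference -0.96 ± 0.05, 95% interval -1.08 to -0.84, adjusted p = 4.28e-05 in edgeR). None of the other 10 listed markers of satellite glia passed the threshold, and the median over the list was 0.05. The summed level of the 11 markers ran from 5560.1 to 7123 CPM at ZT8 and ZT14 and from 5958 to 6541 CPM at ZT20 and ZT2, and so overlapped. Of the 14 lipid-binding genes, Fabp7 alone was called, and the list's median was 0.01.

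Slco1a4 and Fmo2 are known from drug transport and oxidation. Slco1a4 encodes an organic anion transporter of the brain endothelium and liver of mice. Its level was 15.6, 14.5 and 15.4 CPM at ZT8 and 15.2, 15.5 and 15.6 CPM at ZT14, against 12.7, 13.2 and 12.3 CPM at ZT20 and 11.2, 10.3 and 11.1 CPM at ZT2. The sides did not overlap, and Slco1a4 rose 1.30-fold (log2 difference 0.38 ± 0.04, adjusted p = 0.00445 in edgeR). It has close relatives on the same chromosome, so the split of reads among them is uncertain. Fmo2, a flavin-containing monooxygenase, was at 8.47, 7.82 and 9.58 CPM at ZT8 and 17.6, 19.9 and 16.0 CPM at ZT14, against 8.71, 7.29 and 6.87 CPM at ZT20 and 6.98, 6.80 and 5.52 CPM at ZT2. Only ZT14 stood apart, and the ZT8 and ZT20 libraries overlapped. Fmo2 rose 1.77-fold on average (log2 difference 0.83 ± 0.09, adjusted p = 0.00445). Of the 20 tested genes of drug metabolism and barrier transport, 19 had a difference above 0, 2 rose (these ones), and 8 were higher at an unadjusted p under 0.05, against 2.36% of all genes. Both called genes are among the 8, and the list was chosen with earlier results of these data known. The median over that list was 0.11. The summed endothelial markers ran from 199 to 248 CPM at ZT8 and ZT14 and from 192 to 225 CPM at ZT20 and ZT2, and their part in the Slco1a4 difference was not tested.

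Sat1 and Spg21 lay just inside the threshold. Sat1 encodes the acetyltransferase that starts the breakdown of spermine and spermidine. It was at 97.8, 98.0 and 96.3 CPM at ZT8 and 74.6, 83.0 and 88.7 CPM at ZT14, against 105, 109 and 103 CPM at ZT20 and 108, 109.9 and 109 CPM at ZT2. The sides did not overlap, and the ZT14 libraries were lowest. Sat1 fell to 0.834 times its level at ZT20 and ZT2 (log2 difference -0.26 ± 0.04, adjusted p = 0.0461 in edgeR). Leaving out any library other than ZT14 replicate 1 or 3 ended the call, with adjusted p up to 0.224. Of the other 9 genes of polyamine metabolism none passed. Spg21, whose product maspardin is linked to a form of hereditary spastic paraplegia in people, was at 17.4, 17.3 and 19.0 CPM at ZT8 and 15.0, 14.9 and 14.0 CPM at ZT14, against 21.4, 19.3 and 18.5 CPM at ZT20 and 21.1, 20.1 and 19.8 CPM at ZT2. The highest ZT8 library lay above the lowest ZT20 library. Spg21 fell to 0.808 times the level at ZT20 and ZT2 (log2 difference -0.31 ± 0.04, adjusted p = 0.0461), and the call held in single-library omissions only without ZT8 replicate 3 or ZT20 replicate 3, with adjusted p up to 0.16 in the others. The genes just outside the threshold were Rbm4 at -0.70 (adjusted p = 0.0697), Bhlhe40 at 0.29 (0.0823) and Fam107a at 0.53 (0.0896). Over the 23 alternatives Rbm4 was called in 6, Bhlhe40 in 3 and Fam107a in 1, where Sat1 was called in 7. Rbm4, an RNA-binding protein gene, shares 2990 exon bases with the readthrough gene Gm21992 on its own strand, and its counts are uncertain to that degree.

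The contrast is the mean of 2 differences between times 12 h apart that share no library, ZT8 minus ZT20 and ZT14 minus ZT2. For 12 of the 13 called genes both differences had the same sign, and Nr1d1 was the exception, with 1.86 ± 0.19 for ZT8 minus ZT20 and -0.02 ± 0.18 for ZT14 minus ZT2. For Fabp7 the second difference was the wider, at -1.42 ± 0.08 against -0.50 ± 0.08, and for Fmo2 it was 1.47 ± 0.13 against 0.18 ± 0.12. Nr1d2, Ciart and Dbp leaned the other way, with 0.70 ± 0.07, 1.34 ± 0.15 and 1.96 ± 0.24 for ZT8 minus ZT20 beside 0.26 ± 0.07, 0.68 ± 0.15 and 1.05 ± 0.23 for ZT14 minus ZT2. Per3, Tef and Arntl had nearly equal values. When the differences themselves were tested against each other, no gene of the 25809 passed the threshold in edgeR, where the lowest adjusted p was 0.0644, for Fabp7. At an unadjusted p under 0.05 there were 1409 genes (5.46%), limma-trend called 2 (0.00775%) and DESeq2 called 78 (0.302%). Of the 13 called genes 10 had an unadjusted p under 0.05 in that test, among them Fabp7 (3.25e-06), Fmo2 (1.29e-05) and Nr1d1 (1.94e-05). Among the alternatives, Fabp7 passed for this difference in limma-trend (adjusted p = 0.0461) and in edgeR with a replicate block (0.019).

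**Figure D3:**
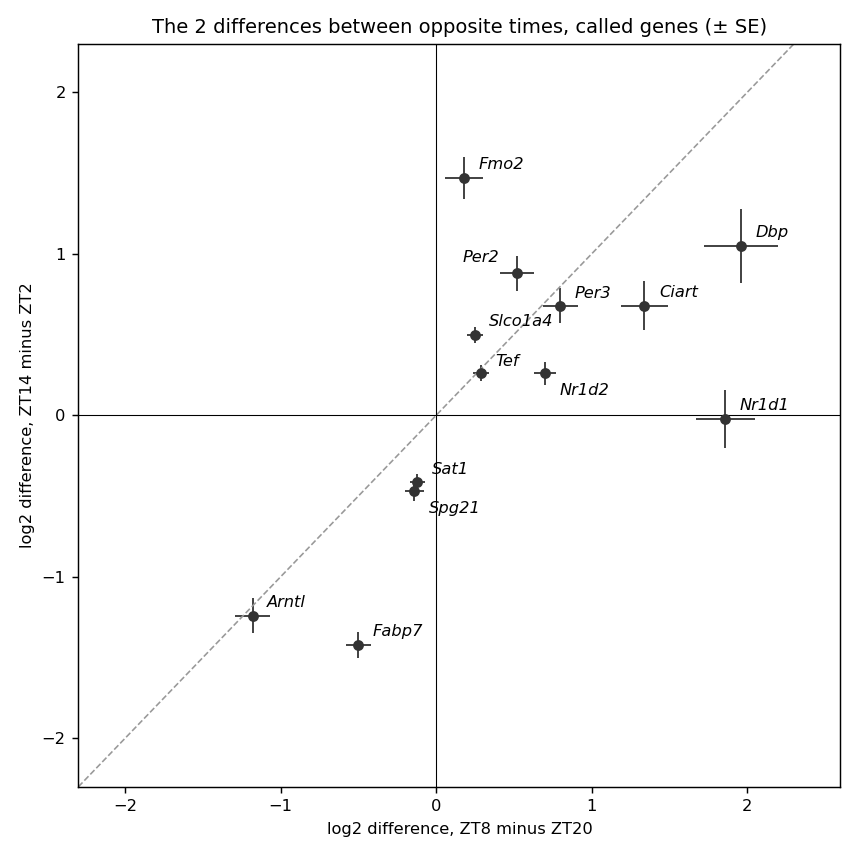
Log2 difference of ZT14 from ZT2 against that of ZT8 from ZT20 for the 13 called genes, with SE bars. The dashed line marks equal differences: Arntl, Per3 and Tef lie near it, Fmo2 above it at 1.47 and Nr1d1 below it at 1.86 on the horizontal axis.

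Other gene groups are described by their counts, since no set test was made. The 23 glucocorticoid-responsive genes included none past the threshold, but 20 had a difference above 0, and 13 were higher and 2 lower at an unadjusted p under 0.05, against 2.36% and 2.62% of all genes. The median over the list was 0.21 and stayed between 0.15 and 0.22 over the alternatives. Fam107a, a stress-induced actin regulator, had 0.53 ± 0.09 with ZT14 highest, at 24.9, 26.5 and 30.5 CPM, against 12.2 to 19.8 CPM over ZT20 and ZT2. Plin4, a lipid droplet protein, had 1.11 ± 0.19 at a low level of 0.575 to 1.15 CPM at ZT8 and ZT14 and 0.265 to 0.5 CPM at ZT20 and ZT2. The classical target genes Fkbp5, Tsc22d3 and Sgk1, named here after their values were seen, were at 0.16 ± 0.06, 0.14 ± 0.05 and 0.25 ± 0.09. On the lower side, Cdkn1a was at -0.13, and the lowest difference in the list was -0.26. Without Per1, which the clock list also holds, 12 of 22 were higher at an unadjusted p under 0.05. Lcn2 is also a neutrophil marker, and it was at 0.73 ± 0.24.

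The 18 endoplasmic reticulum chaperones lay on the other side of 0. Only 1 of 18 had a difference above 0 and the median was -0.09. At an unadjusted p under 0.05, 1 was higher and 4 lower, against 2.36% and 2.62% of all genes. Hsp90b1, a chaperone of the secretory pathway, was at -0.11 ± 0.02, with 250.1 to 265 CPM at ZT8 and ZT14 and 260.1 to 292 CPM at ZT20 and ZT2. Among 21 heat shock genes 3 were above 0 and the median was -0.02. Of these 21, 0 were higher and 2 lower at an unadjusted p under 0.05, against the same shares of all genes. Neither list had a member past the threshold. The immediate early genes, which neurons switch on after activity, had a median of 0.01 with 10 of 17 above 0. Of these 17, 2 were higher and 1 lower at an unadjusted p under 0.05, against 2.36% and 2.62% of all genes. Outputs of the clock in other tissues had a median of 0.02 over 20 genes, of which none passed. Of these 20, 2 were higher and 3 lower at an unadjusted p under 0.05, against 2.36% and 2.62% of all genes. No member of the remaining lists passed either. Leaving aside the blood and skeletal muscle markers described with their sums, these lists run from kinases of clock proteins, sterol synthesis, ribosomal, respiratory chain and interferon genes to markers of Schwann cells, macrophages, lymphocytes, fibroblasts and vessels, and their medians lay between -0.11 for T and B cells and 0.23 for adipocytes, both of which changed sign among the alternatives.

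Neuronal genes were described through their lists in the same way. Over 169 tested genes in 8 lists of channels, neuropeptides, receptors and pan-neuronal markers none passed the threshold, and the median was 0.01. Of the 169, 1 was higher and 6 lower at an unadjusted p under 0.05, against 2.36% and 2.62% of all genes. For 9 genes of nociceptors and touch sensors (Scn9a, Scn10a, Scn11a, Trpv1, Trpa1, Calca, Tac1, P2rx3 and Piezo2) all 9 of the 95% intervals contained 0, and together they ran from -0.25 to 0.28. The lowest level of any of them in a library was 25.7 CPM. Scn9a, the sodium channel Nav1.7 of pain sensing, was at 0.01 ± 0.06 with 67.3 to 88.7 CPM at ZT8 and ZT14 and 68.9 to 84.2 CPM at ZT20 and ZT2. Trpv1, the capsaicin receptor, was at -0.12 ± 0.06 with 109 to 127 CPM at ZT8 and ZT14 and 114 to 146 CPM at ZT20 and ZT2. Calca, the gene of the peptide CGRP, was at 0.01 ± 0.06. These intervals limit the size of any difference but do not show that there was none.

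**Figure D4:**
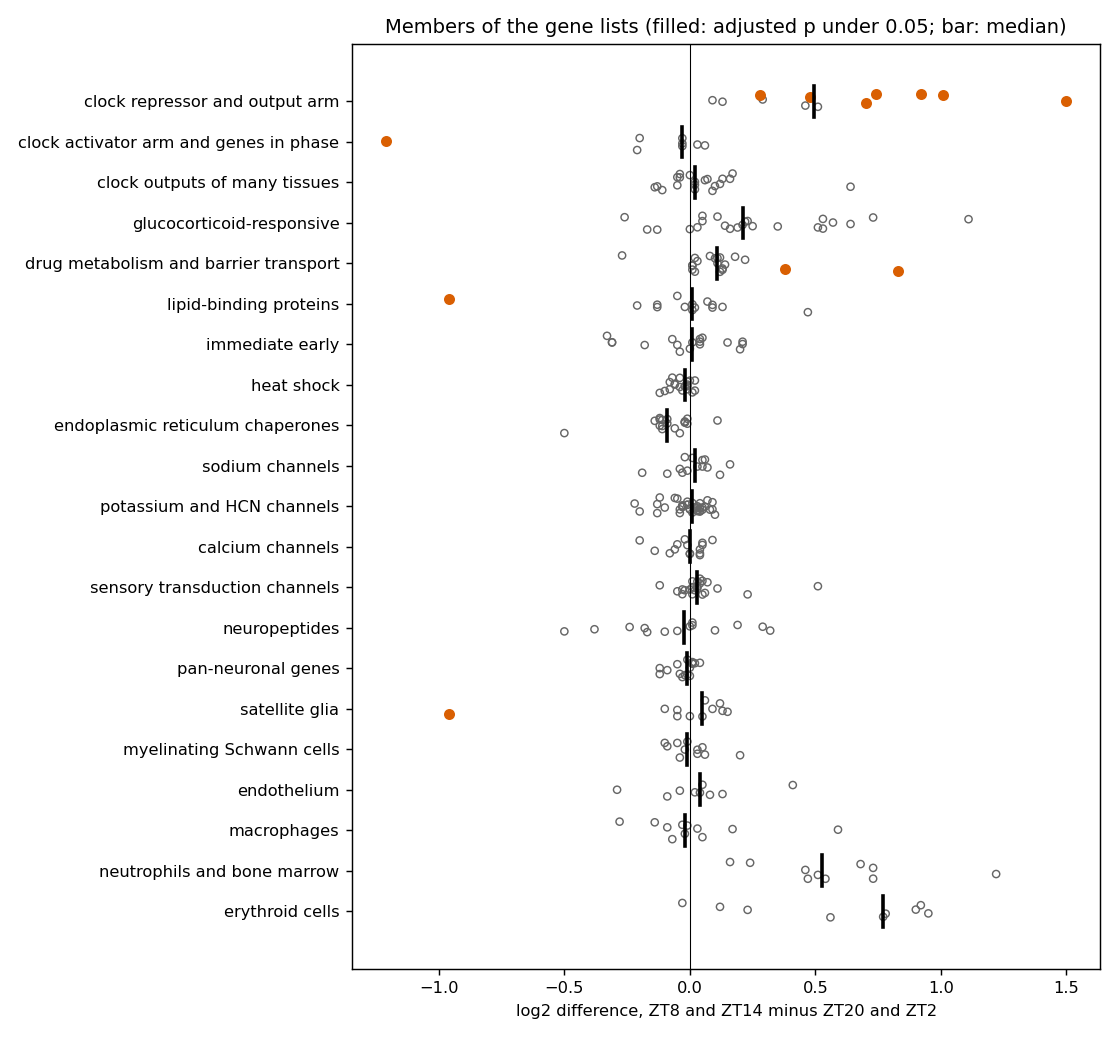
Log2 difference between ZT8 and ZT14 and ZT20 and ZT2 for the tested members of 21 gene and marker lists. Filled points passed the threshold and the bar is the median, which is 0.49 for the clock repressor and output arm and 0.77 for erythroid markers, of which no member passed.

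Markers of blood cells varied across the libraries beside these groups. The 9 erythroid markers had a median log2 difference of 0.77 (0.23 over those left when haemoglobin and mitochondrial genes were removed). None passed the threshold and 7 were higher at an unadjusted p under 0.05, against 2.36% of all genes. Alas2, the red cell enzyme of haem synthesis, was at 7.56, 7.55 and 7.20 CPM at ZT8 and 12.9, 14.2 and 13.4 CPM at ZT14, against 3.48, 2.41 and 2.40 CPM at ZT20 and 12.6, 10.5 and 5.90 CPM at ZT2. ZT20 alone was low in all of its libraries. The sum over the erythroid list was 2246 to 4079 CPM at ZT8 and ZT14 and 813 to 4031 CPM at ZT20 and ZT2, without a gap between the sides. Of the 10 markers of neutrophils and bone marrow all 10 had a difference above 0 and none passed the threshold. Of these markers 6 were higher and 0 lower at an unadjusted p under 0.05, against 2.36% and 2.62% of all genes. Their median was 0.53, between 0.36 and 0.71 over the alternatives, and their sum was 78.8 to 125 CPM at ZT8 and ZT14 and 31.2 to 165 CPM at ZT20 and ZT2. Alas2 had an adjusted p of 0.127, or 0.0241 without ZT2 replicate 3. The skeletal muscle markers ranged from 251 to 672 CPM at ZT8 and ZT14 and from 193 to 1198 CPM at ZT20 and ZT2, where ZT20 replicate 1 was the highest. Their median of -0.43 was 0.59 without that library, 0.06 in limma-trend and 0.12 without the most muscle-rich library of each time. The part of blood in the clock differences was not tested. Without the most muscle-rich library of each time, Arntl, Ciart, Dbp, Nr1d1 and Fabp7 were the 5 genes called. In that fit, which had 4 fewer libraries, the log2 difference of the others was 0.74 for Per3, 0.50 for Nr1d2, 0.86 for Fmo2, 0.35 for Slco1a4, 0.66 for Per2, 0.25 for Tef, -0.31 for Spg21 and -0.23 for Sat1.

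**Figure D5:**
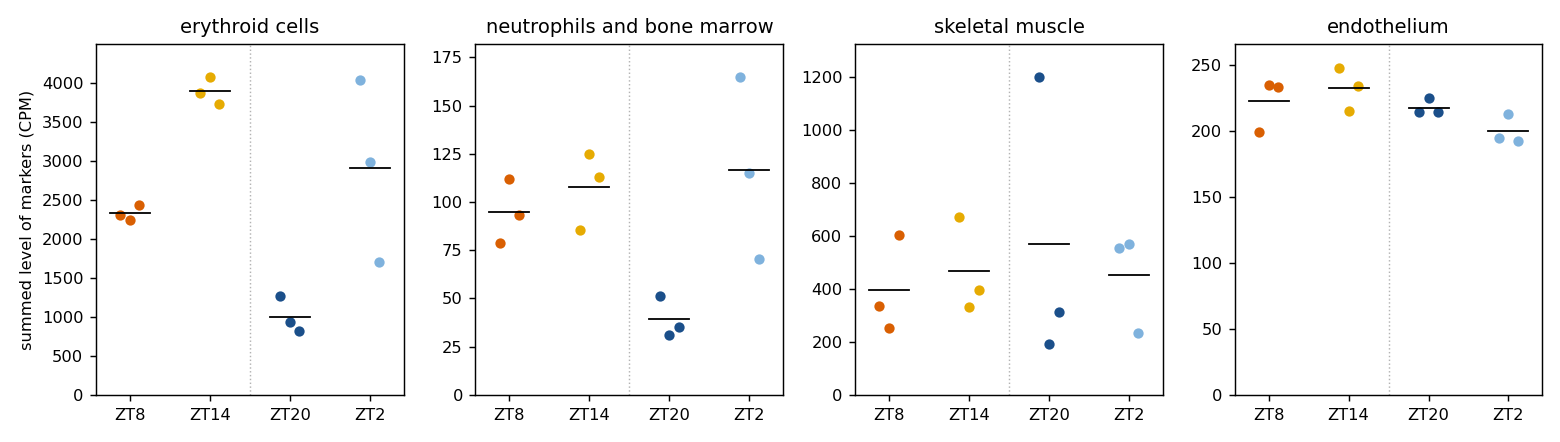
Summed level in CPM of the markers of 4 cell types in each library, with the mean of each time as a bar. Erythroid and neutrophil sums are lowest at ZT20, where erythroid sums are 813 to 1265 CPM, and the muscle sum is highest in one ZT20 library at 1198 CPM.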

How the data were processed

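Per the labels, messenger RNA of lumbar ganglia was enriched with oligo(dT) beads, fragmented, copied with random primers and sequenced as paired reads of 150 bases. Per the submitters' processing notes, HISAT2 2.2.1, StringTie 2.1.5 and build GRCm38.p6 were used; no source used here gives settings or strand. Values in the deposited table are estimated counts per gene, on a coverage scale and not numbers of reads (38942 rows; 348 assembled loci, 0.203% to 0.231% of a library, were left out). This inflates the counts unequally for short and long genes, so counting error was modelled only roughly, and approximate reads were tried instead.

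Counts were rounded, genes were named from GENCODE M21, and 1 edgeR 4.0.16 model with the 4 times (filterByExpr, TMM, robust quasi-likelihood fit, R 4.3.3) gave the contrast (mean of ZT8 and ZT14 minus mean of ZT20 and ZT2) and the test of its component differences, with Benjamini-Hochberg adjustment over 25809 genes. The test was checked on simulated counts drawn from the same kind of model as the fit. They held no difference between the 2 times of a side and no error from the coverage scale, so the check covers neither. Levels are CPM of the TMM-scaled library. Alternatives used limma 3.58.1 (prior count 2) and DESeq2 1.42.0, among 23 in all; tables and figures used Python 3.11.15, pandas 2.3.3 and matplotlib 3.10.9. Promoter windows came from RefSeq.

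The members and lists (38) were chosen with earlier results of these data known. Genes were named by rule: all called genes, all clock list members (1 is not reported here), called or up to 3 lowest-p members of other lists, 9 sensory genes, and the 3 genes on either side of the threshold; genes named outside the rule are said to be. The labels do not say that replicate numbers pair libraries, and no pairing was used in the main model.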

Additional observations from a re-analysis of the deposited data

How the results depend on the processing

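The count of 13 genes was 81 with DESeq2, 5 with 2 groups of 6 libraries, 8 with a replicate block and 5 without the most muscle-rich library of each time; with the other settings it was 10 to 16, and it was 9 to 16 when 1 library was left out. The count for the difference of the differences, 0 in edgeR, was 78 with DESeq2, 2 with limma-trend, 2 with no filter on low values, 2 with at least 1 CPM in 3 libraries, 2 with approximate reads, 1 with a replicate block and 0 to 4 when 1 library was left out (4 without ZT14 replicate 1, and 1 each without ZT8 replicate 1, ZT8 replicate 2 or ZT14 replicate 3). Each setting with a count of 2 called Fabp7 and Dock9, the latter named here after its values were seen. The replicate block called Fabp7, and the 4 without ZT14 replicate 1 included Nr1d1. For the main contrast with 2 groups of 6 libraries, the 5 genes called were Arntl, Per3, Ciart, Dbp and Tef. In that edgeR fit Fabp7 had an adjusted p of 0.0699, and differences between the 2 times of a side counted as spread. The cause of these changes in count was not tested. Deviations from the group means correlated at -0.065 to 0.078 over 18 same-numbered pairs and at -0.087 to 0.133 over 36 others. A batch that touches few genes would not move these values, so they cannot decide whether replicate numbers pair the libraries. Over 23 alternatives Arntl and Ciart were called in 23, Fabp7 and Per3 in 22, Slco1a4, Nr1d2, Fmo2, Per2 and Dbp in 21, Tef in 16, Spg21 in 9, Nr1d1 in 8 and Sat1 in 7, and no called gene changed sign. The precision is limited by 3 libraries a time and by counts on a coverage scale.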

Other observations

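Among the 61 genes (0.236% of those tested) whose libraries did not overlap between the sides, 51 were not called, 34 of them protein-coding. With this many genes tested some separate without any difference between the sides, so the ranges below are only descriptive. The genes below were chosen after their values were seen, and none passed the threshold in the edgeR fit of all 12 libraries. In DESeq2 all those named passed. In other edgeR fits Fzd8 passed with approximate reads (adjusted p = 0.016) and Dhrs3 without ZT8 replicate 3 (0.0169). Fzd8, a Wnt receptor gene, ran from 5.95 to 6.84 CPM at ZT8 and ZT14 and from 7.57 to 7.96 CPM at ZT20 and ZT2 (log2 difference -0.30 ± 0.05, adjusted p = 0.0907). Sox3, a transcription factor of neural progenitors, ran from 1.17 to 2.47 CPM at ZT8 and ZT14 and from 2.83 to 3.66 CPM at ZT20 and ZT2 (-0.79 ± 0.14, adjusted p = 0.128). Dhrs3, which reduces retinaldehyde, ran from 7.84 to 12.1 CPM at ZT8 and ZT14 and from 12.3 to 15.6 CPM at ZT20 and ZT2 (-0.44 ± 0.09, adjusted p = 0.324).

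Glul, the glutamine synthetase of satellite glia, lay on the higher side. Glul ran from 372 to 402 CPM at ZT8 and ZT14 and from 335 to 369 CPM at ZT20 and ZT2 (0.13 ± 0.03, adjusted p = 0.324). Among endothelial markers, Ly6c1 was at 0.41 ± 0.08 (adjusted p = 0.278, or 0.0289 without ZT8 replicate 1) and Cldn5, a tight junction gene, at -0.29 ± 0.07, while the endothelial list's median was 0.04. Cd163, a scavenger receptor of perivascular macrophages, averaged 2.71 ± 0.489 CPM at ZT14 (SD, n = 3), against 1.83 ± 0.149 CPM at ZT8, 1.72 ± 0.186 CPM at ZT20 and 1.27 ± 0.219 CPM at ZT2, with a log2 difference of 0.59 ± 0.12 and an adjusted p of 0.304.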
